A study of Mus musculus with 8 samples.

Results

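The CXC chemokines measured here are 9 genes, Cxcl1, Cxcl2, Cxcl3, Cxcl5, Cxcl9, Cxcl10, Cxcl13, Cxcl16 and Pf4, out of 37018 genes and transcripts on the arrays, and all 9 passed the filter on low values. They were taken by name through the RefSeq identifiers of their probes, and the brightest probe stands for a gene. RNA came from peritoneal macrophages of C57BL/6 LysMCre-fur(fl/fl) mice (KO) and of WT littermates, left untreated or given lipopolysaccharide (LPS) at 1 μg/ml for 1, 4 or 24 h. Each of the 4 time points has 2 Agilent 2-colour arrays, biological replicates 1 and 2, on each of which KO and WT samples of that time were hybridised together. KO RNA was in Cy5 in replicate 1 and in Cy3 in replicate 2, so dye orientation and replicate number cannot be told apart. In this model Cre is expressed from the lysozyme 2 promoter, which acts in myeloid cells such as macrophages and neutrophils, and nonadherent cells were washed away before LPS was given. Values are log2 normalised intensities, and 1 unit is a doubling. A probe's intensity also depends on the probe itself, so levels are compared between samples and not between genes.

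The labels were checked with Furin and with Lyz2. The log2 KO/WT ratio of Furin was -0.59 and -0.85 in untreated cells (replicates 1 and 2). At 1 h it was -0.56 and -0.55, at 4 h 0.00 and 0.33, and after 24 h -0.59 and -0.69. With the replicate number as a block it was called lower in untreated cells, at 1 h and at 24 h (adjusted p = 0.0123, 0.0477 and 0.0227), and without the block at no single time. Furin was thus lower in KO on 6 of 8 arrays and not at 4 h, and it is not known here whether the probe lies in the deleted part of the gene. Lyz2, the gene into which this Cre is inserted, was lower in the channel labelled KO on all 8 arrays, with ratios from -1.85 to -0.74, and its ratios at 4 h were -1.04 and -1.13 (adjusted p = 0.0562, and 0.00186 with the block). All 9 measured macrophage markers were well above background in all 16 channels. The 7 markers of B cells and the 7 of mast cells were so as well, as were 4 or 5 of 7 markers of T and NK cells. These cultures thus held RNA of other peritoneal cells. The NK cell markers of that list, Ncr1 and Klrb1c, were well above background in 0 of 16 channels, so NK cells were not shown.

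Chemokines of the CXC family are small secreted proteins that draw leukocytes along a gradient. Cxcl1, Cxcl2, Cxcl3 and Cxcl5 act on neutrophils through Cxcr2, Cxcl9 and Cxcl10 act on activated T and NK cells through Cxcr3, and Cxcl13 draws B cells through Cxcr5. Cxcl16 is made as a membrane protein that is shed by ADAM proteases and binds Cxcr6, and Pf4 (platelet factor 4) is best known from platelet granules. In macrophages, LPS acts through Toll-like receptor 4, and NF-κB and interferon regulatory factors are the usual routes to chemokine genes.

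Of the 9 genes, 8 lie on mouse chromosome 5. Cxcl5, Pf4, Cxcl3, Cxcl1 and Cxcl2 follow each other there with Ppbp and Cxcl15 between them, Cxcl9 and Cxcl10 are separated by Art3, and Cxcl13 lies apart. RefSeq (GRCm38.p6) promoter sequences were at hand for 7 of the 9 genes, with Cxcl5 and Cxcl16 missing. The stretches below are printed because the first 3 genes and Cxcl10 rose with LPS while Cxcl13 and Pf4 did not rise at 1 or 4 h. Cxcl9, also shown, rose as well and held no match to the NF-κB consensus, so these letters did not divide the genes that rose from those that did not. They end 16 bases before the annotated start. Capitals mark matches to the NF-κB consensus and, in Cxcl10, a match to AAANNGAAA, a core of interferon response elements.
Cxcl1, chr5:90891145-90891229, plus strand: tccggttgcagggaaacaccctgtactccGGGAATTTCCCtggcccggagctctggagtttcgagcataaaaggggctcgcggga
Cxcl2, chr5:90903799-90903883, plus strand: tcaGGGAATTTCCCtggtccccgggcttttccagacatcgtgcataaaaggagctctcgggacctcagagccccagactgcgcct
Cxcl3, chr5:90786001-90786085, plus strand: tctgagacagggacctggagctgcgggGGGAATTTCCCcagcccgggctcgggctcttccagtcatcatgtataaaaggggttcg
Cxcl10, chr5:92348905-92349109, minus strand: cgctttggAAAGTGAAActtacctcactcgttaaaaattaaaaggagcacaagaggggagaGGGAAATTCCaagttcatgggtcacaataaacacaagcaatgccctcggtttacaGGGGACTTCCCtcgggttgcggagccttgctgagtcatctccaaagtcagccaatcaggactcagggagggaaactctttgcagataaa
Cxcl9, chr5:92328095-92328239, minus strand: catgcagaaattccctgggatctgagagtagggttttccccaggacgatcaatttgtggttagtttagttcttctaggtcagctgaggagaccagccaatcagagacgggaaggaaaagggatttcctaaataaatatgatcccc
Cxcl13, chr5:95956839-95956923, plus strand: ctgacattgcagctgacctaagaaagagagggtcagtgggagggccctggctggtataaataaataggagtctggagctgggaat
Pf4, chr5:90772335-90772419, plus strand: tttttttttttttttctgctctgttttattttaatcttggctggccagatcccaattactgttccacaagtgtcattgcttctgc

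The run GGGAATTTCCC stood in the promoters of Cxcl1, Cxcl2 and Cxcl3, and upstream of the start Cxcl3 shared no longer run with either of the others. Between Cxcl1 and Cxcl2 the shared run was 14 bases long, GGGAATTTCCCTGG, and it began at -71 in Cxcl1 and at -97 in Cxcl2, counted from the annotated start. Cxcl9 and Cxcl10 shared CAGCCAATCAG, 11 bases that hold a CCAAT box, and a run of the same length was shared by Cxcl10 and Pf4, so that such a length alone does not set these pairs apart. On both strands of the whole windows, which run from 250 bases before the start to 50 after it, the NF-κB consensus was found in 4 of 7 promoters (Cxcl1, Cxcl2, Cxcl3 and Cxcl10) and in 8.46% of all 32817 promoters, AAANNGAAA in 1 of 7 and in 10.5%, and the AP-1 motif TGANTCA in 2 of 7 and in 7.81%. On the given strand, TATAAA was found in 3 of 7 and in 8.32%, and the overlapping letters ATAAAA in 4 of 7 and in 11.1%. These matches describe letters, and no factor was measured on them.

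**Figure D1:**
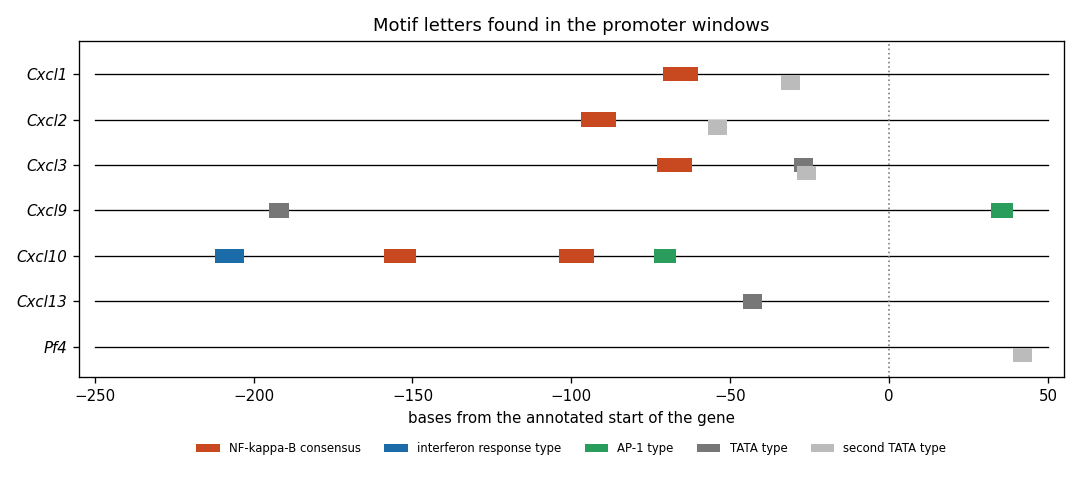
Positions of motif letters in the 7 promoter windows, in bases from the annotated start (dotted line at 0), with 1 line per gene. Red boxes, the NF-κB consensus, begin at -71 in Cxcl1, -97 in Cxcl2, -73 in Cxcl3, and -159 and -104 in Cxcl10, and the other 3 genes have none.

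The neutrophil attractants Cxcl1 and Cxcl2 had made most of their rise after 1 h of LPS, and in KO they were lower again at 24 h than at 4 h. In WT, Cxcl1 was at 10.35 and 10.12 untreated, 17.22 and 16.95 after 1 h, then 17.16 and 17.66 (4 h), and 16.06 and 17.21 (24 h). The KO channels held 11.04 and 10.89, then 16.86 and 17.06, then 17.63 and 17.29, and finally 16.54 and 15.83. Every stimulated channel of either genotype lay above every untreated one. At 1 h Cxcl1 had risen 115-fold in WT (95% confidence interval 70.6 to 187, limma adjusted p = 1.29e-08) and 63.9-fold in KO (39.2 to 104, 5.83e-08), which was the 7th highest of 36927 fitted changes in each genotype. From 1 to 4 h the change of 0.32 in WT and of 0.50 in KO did not pass the test (adjusted p = 0.557 and 0.307).

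Cxcl2 followed the same course with smaller changes. In WT, it was at 10.54 and 10.63 untreated, 16.80 and 16.46 after 1 h, then 17.09 and 17.20 (4 h), and 15.64 and 16.58 (24 h). KO cells had 11.67 and 11.59, then 16.45 and 16.68, then 17.16 and 16.93, and finally 16.19 and 15.37. It rose 66.0-fold in WT and 30.6-fold in KO at 1 h, and 94.2-fold and 42.5-fold at 4 h. Both genes fell from 4 to 24 h in KO, by 1.27 for Cxcl1 (adjusted p = 0.00788) and by 1.26 for Cxcl2 (0.00360). In WT, Cxcl2 fell by 1.04 (0.0134) and Cxcl1, at -0.77, did not pass the test (0.0996). Some of these falls hung on single arrays or on the scaling. With loess alone, the falls of Cxcl1 in KO (-1.10, adjusted p = 0.0686) and of Cxcl2 in WT (-0.78, 0.120) did not pass. Without replicate 1 at 4 h, Cxcl1 in KO no longer passed (-1.11, adjusted p = 0.0674) and neither did Cxcl2 in WT (-1.09, 0.0563), the latter also without replicate 2 at 4 h (-0.98, 0.0826). Without replicate 2 at 24 h, Cxcl1 in WT passed (-1.34, 0.00103).

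Cxcl3 and Cxcl5, of the same neighbourhood and receptor, rose more slowly and were highest at 24 h in both genotypes and both replicates. In WT, Cxcl3 was at 9.35 and 9.55 untreated, 12.15 and 12.15 after 1 h, then 14.85 and 15.10 (4 h), and 16.20 and 16.84 (24 h). Its KO levels were 9.98 and 10.21, then 12.33 and 12.16, then 15.59 and 14.76, and finally 16.31 and 15.55. Cxcl3 had risen 6.50-fold in WT and 4.44-fold in KO at 1 h, and 135-fold (87.2 to 207) and 57.1-fold (37.1 to 88.1) at 24 h. The step from 4 to 24 h passed in WT (1.55, adjusted p = 8.55e-04). In KO it was 0.76 (0.0645), with overlapping channels, and it passed with the replicate number as a block (0.0146), without replicate 2 at 24 h (1.14, 0.00880) and without replicate 1 at 4 h (1.18, 0.0137).

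Cxcl5 had the steadiest climb. In WT, it was at 8.32 and 7.27 untreated, 9.93 and 9.66 after 1 h, then 12.14 and 11.72 (4 h), and 13.81 and 14.87 (24 h). KO cells went from 7.21 and 7.42 to 9.04 and 9.13, then 11.55 and 11.46, and finally 13.91 and 13.78. Each step passed the test in both genotypes: 2.00 and 1.77 in the first hour, 2.14 and 2.42 from 1 to 4 h, and 2.41 and 2.34 from 4 to 24 h (WT and KO, adjusted p from 5.02e-05 to 0.00390). At 24 h the rise was 93.6-fold in WT (57.2 to 153) and 92.4-fold in KO (56.5 to 151). Over the alternatives its log2 value ranged from 6.02 to 7.24 in WT and from 6.43 to 7.44 in KO. Across the 16 channels, Cxcl1 and Cxcl2 had Pearson's r = 0.997 and Cxcl3 and Cxcl5 r = 0.962, while Cxcl1 and Cxcl5 had r = 0.674. These are descriptions, since KO and WT channels of a time point share an array.

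**Figure D2:**
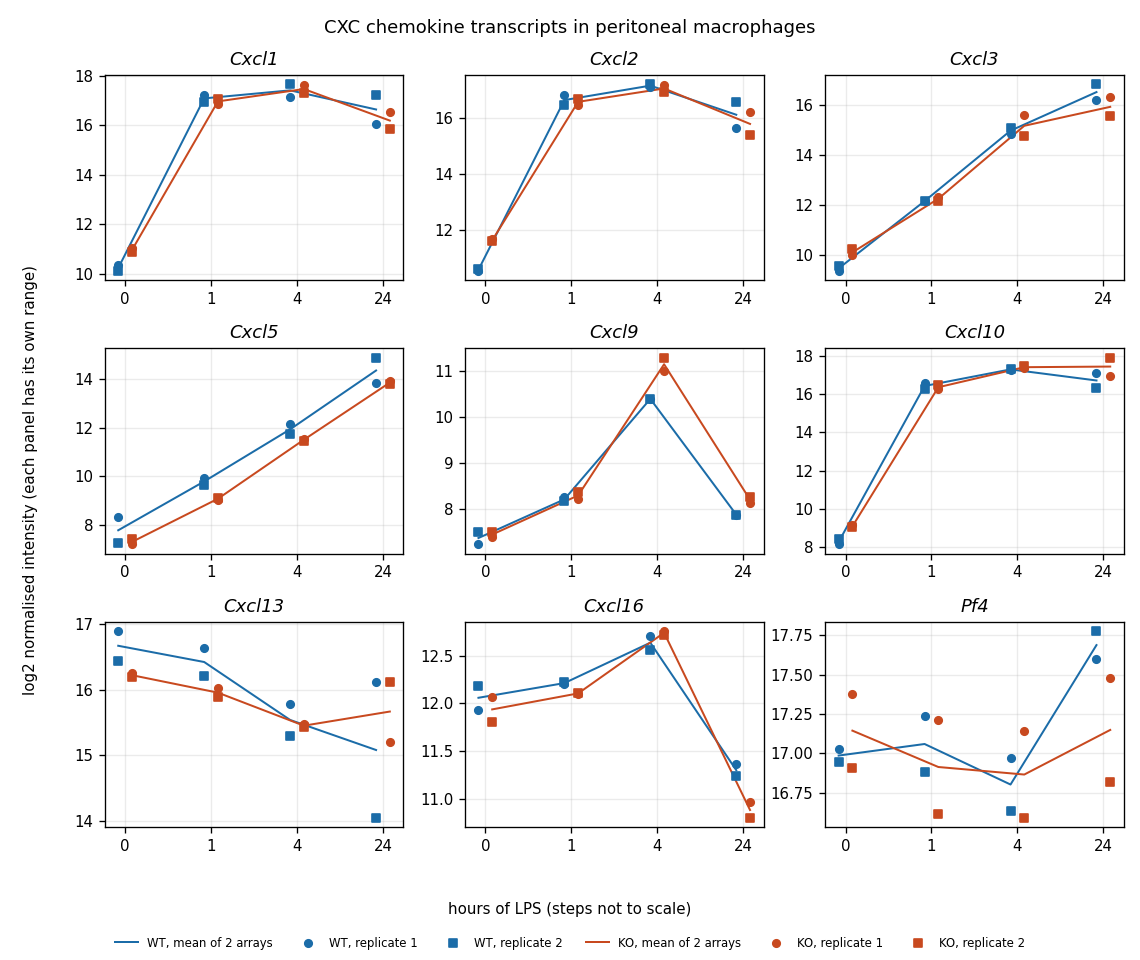
Log2 normalised intensity of the 9 genes by hours of LPS, with WT in blue, KO in red, circles for replicate 1, squares for replicate 2 and lines through the means of 2 arrays. Cxcl1, Cxcl2 and Cxcl10 made most of their rise by 1 h, Cxcl3 and Cxcl5 climbed to 24 h, Cxcl9 and Cxcl16 were highest at 4 h, and the 24 h replicates of Cxcl13 in WT lay at 16.12 and 14.04.

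Cxcl10, an attractant of activated T and NK cells, rose more than any other of the 9 genes. In WT, it was at 8.14 and 8.40 untreated, 16.58 and 16.26 after 1 h, then 17.25 and 17.32 (4 h), and 17.10 and 16.32 (24 h). KO levels of Cxcl10 were 9.13 and 9.03, then 16.24 and 16.46, then 17.34 and 17.47, and finally 16.96 and 17.91. The rise at 4 h was 518-fold in WT (339 to 794) and 320-fold in KO (209 to 490). Its fitted changes ranked 2nd, 3rd and 6th of 36927 at 1, 4 and 24 h in WT and 2nd, 5th and 4th in KO. From 1 to 4 h Cxcl10 still rose, by 0.87 in WT (adjusted p = 0.0339) and by 1.05 in KO (0.0110). The former lost its call when either array of the untreated, 1 h or 4 h cells was left out (0.0533 to 0.219), and the latter without replicate 1 at 1 h (0.0853) or replicate 2 at 4 h (0.0770). From 4 to 24 h it did not pass in either genotype (-0.58 in WT, 0.03 in KO), but it did in WT without replicate 1 at 24 h (-0.97, 0.00148).

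Cxcl9, its neighbour and a ligand of the same receptor, behaved otherwise: it was high at 4 h and near its untreated level again at 24 h. In WT, it was at 7.24 and 7.51 untreated, 8.26 and 8.17 after 1 h, then 10.40 and 10.40 (4 h), and 7.89 and 7.88 (24 h). KO levels of Cxcl9 were 7.41 and 7.50, then 8.22 and 8.38, then 11.01 and 11.30, and finally 8.15 and 8.27. It rose 8.13-fold in WT (6.79 to 9.74, adjusted p = 3.00e-10) and 13.0-fold in KO (10.9 to 15.6, 5.54e-11) at 4 h, and fell by 2.52 and 2.94 from 4 to 24 h (6.49e-09 and 2.53e-09). The smaller rises at 1 h (0.84 and 0.85) and at 24 h (0.51 and 0.76) also passed, the one of WT at 24 h not without replicate 1 of the untreated cells (0.37, adjusted p = 0.0894). The array holds a second, dimmer probe for Cxcl9. At 4 h it was higher by 4.01 in WT and by 4.49 in KO than in untreated cells. In the latter it was well above background in 1 of 2 WT and 2 of 2 KO channels, so the WT size is approximate. At 1 h it was well above background in 0 of 2 WT and 1 of 2 KO channels and lay 0.36 and 0.10 below untreated. The rise at 1 h thus rests on 1 probe, and with the mean of both probes it did not pass (0.24 and 0.37, adjusted p = 0.540 and 0.248).

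Cxcl16, Cxcl13 and Pf4, like the other chemokines measured, were well above background in untreated cells, and they changed less than Cxcl10. Cxcl16 was at 11.93 and 12.19 in untreated WT and at 12.07 and 11.81 in untreated KO, and at 1 h between 12.10 and 12.22 in all 4 channels. At 4 h it was at 12.71 and 12.56 in WT and at 12.76 and 12.72 in KO, and at 24 h at 11.36 and 11.24 and at 10.97 and 10.81. Its rise at 4 h (1.49-fold in WT, adjusted p = 0.00140, and 1.74-fold in KO, 8.46e-05) and its fall below untreated at 24 h (by 0.76 in WT, 1.93e-04, and by 1.05 in KO, 1.05e-05) exceeded the spread of its replicates, and the channels did not overlap. They were smaller than the changes of Cxcl1, Cxcl2, Cxcl3, Cxcl5 and Cxcl10 at these times.

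Cxcl13 was at 16.90 and 16.45 in untreated WT, 16.64 and 16.21 after 1 h, then 15.78 and 15.30 (4 h), and 16.12 and 14.04 (24 h). The KO channels were at 16.26 and 16.19, then 16.02 and 15.89, then 15.48 and 15.43, and finally 15.21 and 16.13. Its 24 h replicates lay further apart than its time points. The fall by 1.59 at 24 h in WT passed (adjusted p = 0.0243) but not without replicate 2 at 24 h (-0.56, 0.111), nor without replicate 1 (-1.37, 0.170) or replicate 2 (-1.82, 0.0633) of the untreated cells, nor with loess alone (-1.25, 0.0802). The value at 4 h in WT, -1.13, did not pass (0.0992) and passed with the replicate block (0.0215) and when either 24 h array was left out (4.69e-04 in both cases). In KO the values were -0.77 at 4 h (95% confidence interval -1.84 to 0.30) and -0.56 at 24 h (-1.62 to 0.51), and neither passed. These calls too depended on the 24 h arrays, as the first passed when either was left out (adjusted p = 0.00653 in both cases) and the second without replicate 2 at 24 h (-1.02, 0.00681).

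Pf4 stayed between 16.59 and 17.78 in all 16 channels. In WT, it was at 17.02 and 16.95 untreated, 17.24 and 16.88 after 1 h, then 16.97 and 16.63 (4 h), and 17.60 and 17.78 (24 h). KO levels of Pf4 were 17.38 and 16.91, then 17.21 and 16.61, then 17.14 and 16.59, and finally 17.48 and 16.82, with replicate 1 above replicate 2 each time. The WT step from 4 to 24 h passed (0.88, adjusted p = 0.0165), but not without replicate 2 at 24 h (0.79, 0.0687) or at 4 h (0.72, 0.111), nor with loess alone (0.89, 0.0760) or Aquantile (0.89, 0.0646). Against untreated WT cells the 24 h value of 0.70 missed the threshold (0.0532) and passed with the replicate block (4.39e-04) and without any 1 of the 1 h and 4 h arrays (0.0443 to 0.0493). No change of Pf4 passed in KO. Of 7 platelet and megakaryocyte markers, 0 to 4 were well above background in a channel. Gp1bb was so in 15 of 16 channels, Gp6 and Treml1 in 8 each, and Gp9 and Gp5 in none, and their mean log2 intensity lay between 6.36 and 7.13. Bulk RNA cannot tell fewer cells of a type from less RNA per cell.

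At 1 h, 6 of the 9 genes were called higher in WT (3.35% of all genes and transcripts) and 6 in KO (3.08%), against 0 called lower in either (5.15% and 4.45%). At 4 h, 7 were higher in WT (15.5% of all) and 7 in KO (16.2%), and 0 lower (19.2% and 19.7%). At 24 h, 6 were higher in WT (13.5%) and 6 in KO (12.8%), while 2 were lower in WT, Cxcl13 and Cxcl16 (16.8%), and 1 in KO, Cxcl16 (15.9%). The median change of the 9 genes was 2.00, 4.14 and 5.52 in WT and 1.77, 4.19 and 4.15 in KO at 1, 4 and 24 h, where the median of all tested lay between -0.02 and 0.00. From 1 to 4 h, 5 were higher in WT (13.9%) and 5 in KO (15%), and 0 lower (15.6% and 16.7%). Without replicate 1 at 1 h, the WT calls of Cxcl10 and Cxcl16 (0.41) from 1 to 4 h were lost. Over all alternatives this step of Cxcl16 was called in 12 of 16. From 4 to 24 h, 3 were higher and 3 lower in WT (15.1% and 14.6%), and 1 was higher and 4 were lower in KO (15.6% and 15.1%). The share of rising genes among the 9 was above that of all genes and transcripts at all 3 times after LPS.

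**Figure D3:**
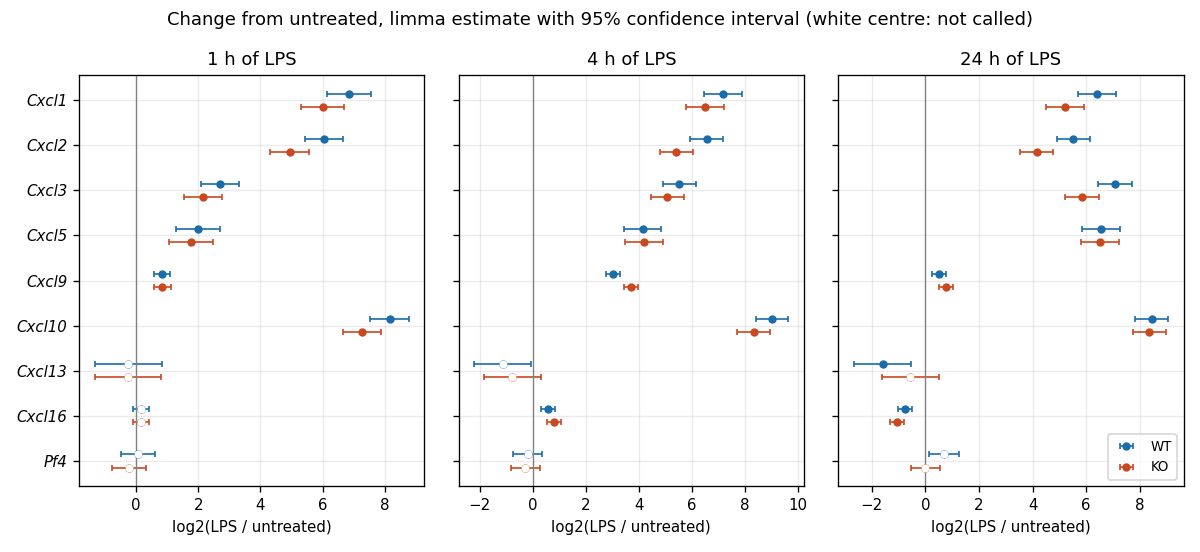
Change of each gene from untreated cells on the log2 scale at 1, 4 and 24 h of LPS, as limma estimates (points) with 95% confidence intervals (bars), WT in blue and KO in red. White centres mark changes that did not pass the test, which are those of Cxcl13, Cxcl16 and Pf4 at 1 h, Cxcl13 and Pf4 at 4 h, and Pf4 in both genotypes and Cxcl13 in KO at 24 h.

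KO and WT cells were then compared on the same arrays. In untreated cells, Cxcl2, Cxcl10, Cxcl1 and Cxcl3 were higher in KO on both arrays, but none passed the test. The log2 KO/WT ratio of Cxcl2 was 1.13 and 0.96, with a mean of 1.05 (95% confidence interval 0.29 to 1.80, adjusted p = 0.557). For Cxcl10 it was 0.99 and 0.63 (mean 0.81, 0.07 to 1.55, 0.793), for Cxcl1 0.68 and 0.77 (0.73, -0.11 to 1.56, 0.948), and for Cxcl3 0.63 and 0.66 (0.64, -0.07 to 1.36, 0.932). Cxcl2 ranked 24th highest of 36947 ratios, Cxcl10 53rd, Cxcl1 76th and Cxcl3 111th, and the unadjusted p-values were 0.0122, 0.0354, 0.0795 and 0.0721. Cxcl13 was lower in KO on both untreated arrays, at -0.65 and -0.25 (mean -0.45, -1.65 to 0.75, adjusted p = 1.00). The other 4 genes had mean ratios from -0.48 (Cxcl5) to 0.16 (Pf4). No gene or transcript was called in untreated cells by limma (0%, with 2126 at an unadjusted p under 0.05) or by the t-test that the study's methods name. With the replicate block 1.06% were called, and none of the 9 (adjusted p = 0.107 for Cxcl2).

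After 1 h of LPS the ratios of these genes lay nearer 0. The ratios of Cxcl1 were -0.36 and 0.11, those of Cxcl2 -0.35 and 0.22, those of Cxcl10 -0.34 and 0.21, and those of Cxcl3 0.18 and 0.01. The confidence intervals of these 4 means reached from -0.96 to 0.81, so that differences of nearly a doubling lie within them. Cxcl5 was lower in KO at 1 h, at -0.89 and -0.53, and at 4 h, at -0.59 and -0.26. Over all 8 arrays Cxcl5 was lower on 6, with a mean of -0.53 (-0.89 to -0.16, adjusted p = 0.229, and 0.0526 with the block). Cxcl13 was lower in KO at 1 h as well, at -0.62 and -0.32 (mean -0.47, -1.67 to 0.74, 1.00). None of the 9 genes was called at 1 h, where limma called 0% of all (2017 at an unadjusted p under 0.05), the methods' t-test 0 (1756 at an unadjusted p under 0.05) and 0.577% with the block.

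Cxcl9 at 4 h was the clearest difference. Its ratio was 0.61 and 0.90, a mean of 0.75 (0.50 to 1.01) or 1.68-fold, and the 2 channels labelled KO (11.01 and 11.30) lay above the 2 labelled WT (10.40 and 10.40). It did not pass (adjusted p = 0.158, in a comparison that called 0.00812% of all), and it passed with the replicate block (0.00900, 0.568% called), the lowest of a range up to 1.00 over the alternatives. The dimmer Cxcl9 probe, with means of 11.7 in KO and 10.9 in WT, had the same order at 4 h. Furin itself was not lower in KO on these arrays, whereas Lyz2 was. Ifng, whose product is the classic inducer of Cxcl9, had ratios of -0.22 and 1.12 at 4 h. Over the 4 times the Cxcl9 ratio was above 0 on 6 of 8 arrays and averaged 0.31 (0.18 to 0.44), which missed the threshold (adjusted p = 0.0577, 0.563% of all called) and passed with the block (0.00500, 6.01% called), in a range up to 0.224 over the alternatives. Cxcl10 averaged 0.40 over the times (0.03 to 0.77, 0.425) and passed only without replicate 1 at 24 h (0.61, 0.0381).

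At 24 h the replicates disagreed. On the array of replicate 2 Cxcl1, Cxcl2, Cxcl3 and Cxcl5 were lower in KO (-1.38, -1.20, -1.29 and -1.09) and Cxcl10 and Cxcl13 higher (1.59 and 2.08). On that of replicate 1 their ratios were 0.48, 0.55, 0.11, 0.10, -0.14 and -0.91, each of the opposite sign. The means were therefore uncertain, from -0.59 for Cxcl3 (-1.31 to 0.12) to 0.73 for Cxcl10 (-0.01 to 1.47). Cxcl16 alone had near equal ratios, -0.40 and -0.44 (mean -0.42, -0.69 to -0.14, adjusted p = 0.868). Cxcl9, at 0.26 and 0.39, and Pf4, at -0.12 and -0.96, were also of 1 sign. None of the 9 was called at 24 h, where 0.0244% of all were, nor with the block (0.585%). At 24 h Ifng had ratios of 2.90 and 1.52 (adjusted p = 0.136, and 0.00912 with the block), and Ifnb1 0.79 and 0.63 (0.644, and 0.133). Their part in the values of Cxcl9 and Cxcl10 was not tested.

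**Figure D4:**
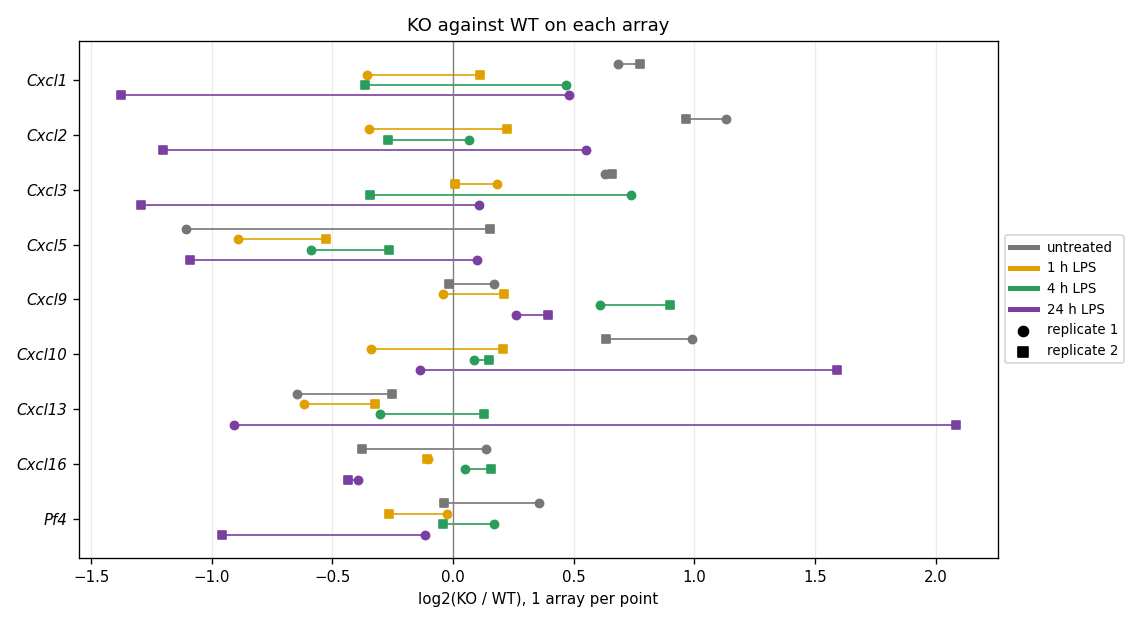
Log2 KO/WT ratio of each gene on each of the 8 arrays, coloured by time, with circles for replicate 1 and squares for replicate 2. The 2 untreated arrays lie together above 0 for Cxcl1, Cxcl2, Cxcl3 and Cxcl10, both 4 h arrays lie above 0 for Cxcl9, and the 24 h arrays lie on either side of 0 for 6 of the 9 genes.

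The response to LPS, the change of the KO/WT ratio from untreated cells, was then computed. It holds the untreated ratio with its sign turned, so that for Cxcl1, Cxcl2, Cxcl3 and Cxcl10, whose untreated ratios were high, values below 0 follow in part from that choice. For Cxcl2 they were -1.11, -1.15 and -1.37 at 1, 4 and 24 h, and each replicate lay below 0 each time (-2.17 to -0.58). For Cxcl1 the differences were -0.85, -0.68 and -1.18, for Cxcl10 -0.88, -0.70 and -0.08, and for Cxcl3 -0.55, -0.45 and -1.24. The replicates differed in sign for Cxcl10 at 24 h (-1.13 and 0.96) and for Cxcl3 at 4 h (0.11 in replicate 1, below 0 in replicate 2). For Cxcl9 the difference at 4 h was 0.68 (0.31 to 1.04), with 0.44 and 0.91 in the replicates. None of the 9 genes passed at any time, and neither did any other gene or transcript (0% at 1, 4 and 24 h, with 517, 1073 and 1230 at an unadjusted p under 0.05). With the block 0%, 0.0352% and 0.211% were called, again without any of the 9 (adjusted p from 0.163 upward). The 3 differences share the untreated arrays, so they are not independent of one another.

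Markers of other cells were set beside these ratios. The mean of the macrophage markers differed between KO and WT by -0.39 to -0.01, below 0 on 8 of 8 arrays. Without Lyz2, left out after the values were seen, the mean of the other 8 was lower in KO on 5 of 8 arrays and higher on 3, by -0.26 to 0.11. The mean with Lyz2 went with LPS from between 14.3 and 14.6 untreated to between 12.3 and 12.7 at 24 h. The mast cell markers were higher in KO on 6 of 8 arrays and most of all in replicate 2, by 1.04 at 4 h and 0.92 at 24 h. The B cell markers differed between KO and WT by -0.21 to 0.59 and were higher in KO on 5 of 8 arrays. The markers of T and NK cells, with the NK markers Ncr1 and Klrb1c at background, differed by -0.47 to 0.93 and were higher in KO on 5 of 8. Those of neutrophils, of which 3 or 4 of 7 were well above background, differed by -0.24 to 0.07 and were higher in KO on 1 of 8 arrays. The part of these cells in the chemokine values was not tested. Cxcr2, the neutrophil receptor of Cxcl1, Cxcl2, Cxcl3 and Cxcl5, was well above background in 0 of 16 channels.

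Of the other CXC chemokines, Cxcl14 and Ppbp were well above background in all 16 channels and Cxcl12 in 14, and these genes fell with LPS. Cxcl15 and Cxcl17 were well above background in 1 and 0 of 16 channels and Cxcl11 had no named probe. Cxcl14 fell from 11.54 and 11.60 in untreated WT to 8.67 and 8.65 at 24 h, and from 12.44 and 11.85 to 7.87 and 7.84 in KO. Its KO/WT ratio was 0.90 and 0.25 in untreated cells and -0.79 and -0.81 at 24 h, which passed only with the block (adjusted p = 0.534 and 0.398 without it, 0.0428 and 0.0101 with it). At 24 h Cxcl14 fell by 2.91 in WT and fell by 4.29 in KO, and the difference of -1.38 passed only with the block (adjusted p = 0.434, and 0.00882). Cxcl12, the stromal ligand of Cxcr4, changed by -1.99 and -2.31 at 24 h and Ppbp, a further ligand of Cxcr2, by -1.26 and -1.81 (WT and KO). At 24 h Cxcl12 was not well above background in WT replicate 2 (6.53) or KO replicate 1 (6.43), so the sizes of its falls are uncertain.

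Among the CXC chemokine receptors, Cxcr4 changed by -3.92 in WT and -3.90 in KO at 4 h and lay at -2.12 and -2.36 from untreated at 24 h. Cxcr3, the receptor of Cxcl9 and Cxcl10, changed by -1.33 and -1.71 at 4 h. Cxcr5, the receptor of Cxcl13, rose by 1.51 in WT and by 1.64 in KO at 1 h and remained higher at 4 h (1.96 and 1.62). Cxcr6, the receptor of Cxcl16, did not pass at any time against untreated cells, and its KO/WT ratio averaged 0.46 over the times, above 0 on 7 of 8 arrays (adjusted p = 0.161, and 0.00345 with the block). At 1 h that ratio was 0.78 (0.721, and 0.0382 with the block). Cxcr1 rose from near background by 0.86 and 0.95 at 4 h, when every channel was well above background (7.25 to 7.98). Over all times it was well above background in 8 of 16 channels, and in untreated cells only in replicate 2. Ackr3, a scavenging receptor, rose at 1 h in KO (0.62, 0.0105) and changed at 24 h by -0.52 in WT and -0.80 in KO, when it was in no channel well above background. Its KO/WT ratio was 0.66 at 1 h (0.358, and 0.0260 with the block) and 0.31 over the times (0.0577, and 0.00636). The latter includes 4 h and 24 h, when no channel was well above background. Cxcr3, Cxcr5 and Cxcr6 are expressed by lymphocytes, whose markers were present in these cultures.

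**Figure D5:**
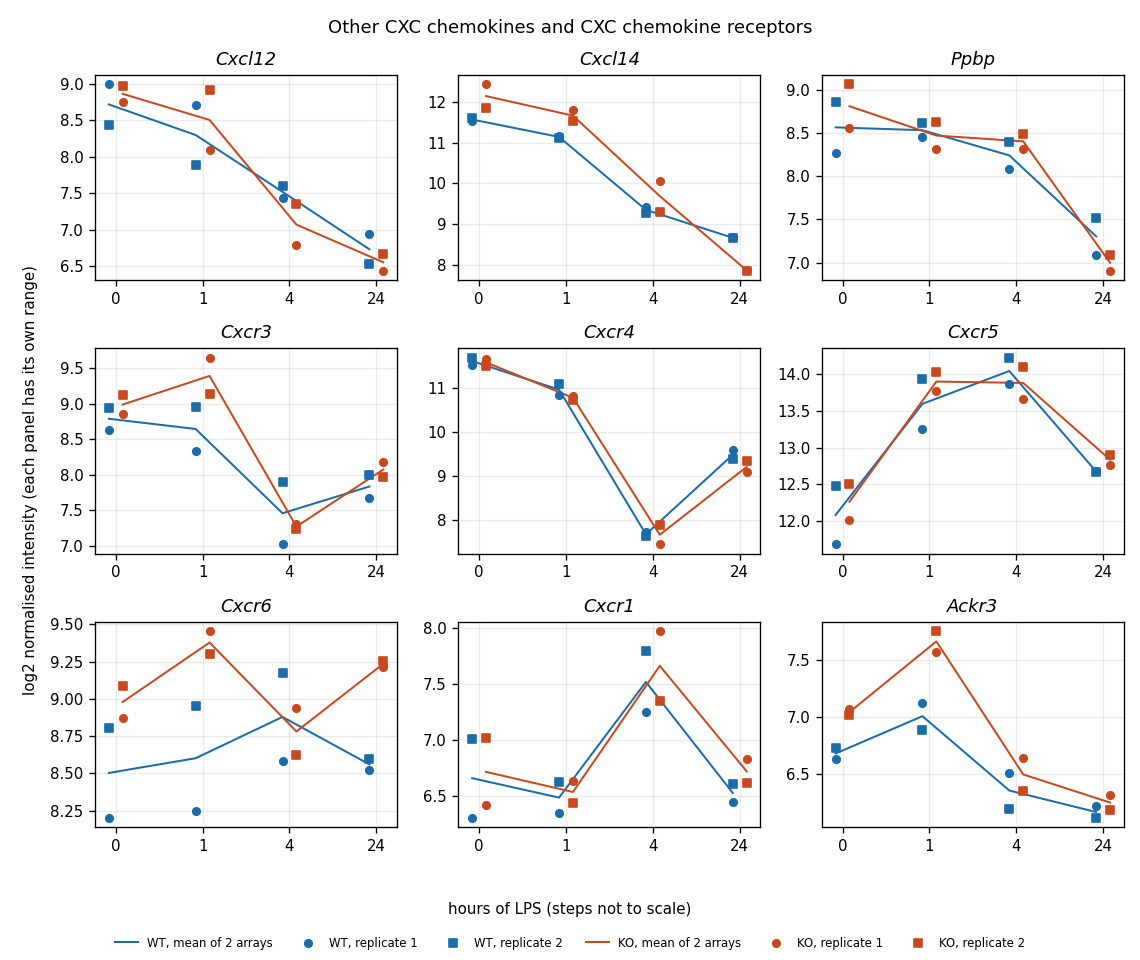
Log2 normalised intensity of 3 other CXC chemokines and of 6 CXC chemokine receptors by hours of LPS, drawn as for the 9 genes. Cxcl12, Cxcl14 and Ppbp fell by 24 h, Cxcr4 was lowest at 4 h and Cxcr5 rose by 1 h in both genotypes.

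All 13 genes of the NF-κB and mRNA decay list, which holds Nfkbia, Tnfaip3 and Zfp36, rose at 1 h and at 4 h in both genotypes (median 1.95 and 2.44 in WT, where 3.35% and 15.5% of all rose), and all 13 fell from 4 to 24 h, when 14.6% of all fell in WT and 15.1% in KO and Cxcl3 and Cxcl5 did not fall. Of 13 genes of the interferon axis, 2 were higher and 4 lower in WT at 1 h, against 3.35% and 5.15% of all, and 3 higher and 4 lower in KO, against 3.08% and 4.45%. Of the same list, 8 were higher and 4 lower in either genotype at 4 h, where the shares of all were 15.5% and 19.2% in WT and 16.2% and 19.7% in KO. Of 8 enzymes that cut chemokines or their precursors, Furin included, 1 was higher and 4 were lower at 24 h in each genotype, where 13.5% and 12.8% of all were higher and 16.8% and 15.9% lower (WT and KO). Without the block, no gene of these 3 lists was called between KO and WT at a single time, and over the times Furin was. With the block, at single times, Furin was called at the 3 given above, Irf7 in untreated cells (0.63, adjusted p = 0.0192), and Ifng and Irf1 (0.97, 0.00482) at 24 h. Among 6928 named genes that moved by at least 1 unit between groups, the 9 chemokines themselves left out, those most like Cxcl1 and Cxcl2 over the 16 channels were the CC chemokines Ccl3 (r = 0.996 and 0.995) and Ccl4 (0.992 and 0.993). Cxcl10 was most like Il6 (0.990) and Il1b (0.985), Cxcl3 like Ero1a and Ube2j1 (0.988 each), Cxcl5 like Tmem248 (0.974) and Boc (0.973), Cxcl9 like Arl4a (0.988) and Jarid2 (0.985), and Cxcl16 like Mthfs (0.971) and Lonrf1 (0.969). For Cxcl13 the nearest were Ifitm6 (0.864) and Lgmn (0.853), and for Pf4 Dnajc3 (0.783) and Tbcb (0.771).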

How the data were processed

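Each array was scanned in 2 colours on 1 slide, and the authors extracted raw spot intensities with Agilent Feature Extraction 10.7.3. The deposited intensity files hold medians of the pixels, used here in place of the planned means. The authors also deposited a table of normalised log2 ratios of Cy5 to Cy3, used only as an alternative. Its values had a slope of 0.66 to 0.72 on the software's own log2 ratios, and its medians were 0.00612 to 0.0108. The study's methods name loess and quantile normalisation in limma, and whether these alone made that table, and its scale, stays unknown. Precision is limited by the number of arrays. Between 43.8% and 51.3% of gene spots were well above background in a channel, and none of the 9 genes was below background or saturated in any channel. The growth protocol in the labels names 4 h of LPS for all samples; time points were taken from the sample titles.

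Background was corrected by normexp (offset 50), followed by loess within and quantile normalisation between arrays, all in limma 3.58.1 under R 4.3.3. Outlier spots were left out, spots of a probe averaged and the brightest probe taken per gene. Of 55681 gene probes, 27509 were named. Tests covered 36947 genes and transcripts whose mean log2 intensity reached 6. KO/WT ratios were fitted with lmFit, 1 coefficient per time, and tested with eBayes, and LPS changes by separate-channel analysis (statmod 1.5.0, 36927 genes and transcripts, within-spot correlation 0.116). P-values were adjusted by Benjamini-Hochberg over all tested, with a threshold of 0.05. The KO/WT ratio of replicate 1 minus that of replicate 2 correlated across genes between times (r = 0.475 to 0.679 over 6 pairs). For intensities within a genotype, r was 0.339 to 0.565 in WT and 0.214 to 0.336 in KO. Dye orientation follows the replicate number, so these correlations cannot tell pairing from a dye effect. The numbers mark biological replicates, and pairing by number was assumed and not tested. A second fit blocked on that number, here also a dye term, is given beside a printed result whose call it changes.

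Members and lists were chosen with earlier results of these data known. The genes named are the 9, other CXC chemokines and receptors well above background in at least 4 of 16 channels, for each member the 2 genes of most similar pattern, and Furin. Lyz2, Ifng, Ifnb1, Irf1, Irf7, Cxcr2, the other genes at or near background and the markers named were added after their values were seen. Alternatives were no background correction, the software's processed signals, Aquantile or no normalisation between arrays, other filters, the mean of all probes, each array left out, the block, the deposited ratios and the methods' t-test.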

Additional observations from a re-analysis of the deposited data

Results flagged for a closer look

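The log2 KO/WT ratio of Cxcl16 changed sign between the LPS times, with both arrays of a time on the same side of 0. At 1 h its values were -0.11 and -0.11. After 4 h of LPS they were 0.05 and 0.16, and after 24 h -0.40 and -0.44. The mean at 4 h was 0.21 above that at 1 h, and from 4 to 24 h the mean changed by -0.52. The differences between these LPS times were not tested, and each time point has 2 arrays.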

How the results depend on the processing

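Calls of the 9 genes changed under most alternatives. No background correction and no filter changed none of them. With the replicate block, 1 gene (Cxcl9) was called in KO against WT at 4 h and 1 over the times, where there were 0 without it. The block changed the LPS calls of Cxcl13 in WT at 4 h, Pf4 in WT at 24 h and Cxcl3 in KO from 4 to 24 h and no other call of the 9 genes. With 1 array left out, the count over the times ranged from 0 to 1 (Cxcl10, without replicate 1 at 24 h), and that of WT from 1 to 4 h from 3 to 7, where it was 5. The methods' t-test shares no spread between genes and pools only that of the 2 groups compared. After Benjamini-Hochberg adjustment it called 0 in WT and 0 in KO at 1 h, and 5 in WT and 4 in KO at 4 h. At 24 h it called 0 in WT and 1 in KO. Of all 36931 genes and transcripts tested at 1 h it called 0 in either genotype (4869 in WT and 5065 in KO at an unadjusted p under 0.05), of 36947 at 4 h 1836 in WT and 775 in KO, and of 36943 at 24 h 12 and 612. KO/WT ratios of 24 h turned with the array left out: Cxcl10 ranged from -0.14 to 1.59 and Cxcl3 from -1.29 to 0.11. The change of Pf4 in KO from 4 to 24 h ranged from -0.048 to 0.61. The cause was not tested. Loess alone ended 5 LPS calls, those of Cxcl1 in KO (adjusted p = 0.0686), Cxcl2 in WT (0.120) and Pf4 in WT (0.0760) from 4 to 24 h, Cxcl13 in WT at 24 h (0.0802) and Cxcl16 in WT from 1 to 4 h (0.0542), and added Cxcl3 in KO from 4 to 24 h (0.0268). Aquantile ended that of Pf4 (0.0646) and added Cxcl10 in WT from 4 to 24 h (0.0493). A minimum of 8 added Cxcl1 in WT (0.0452) and Cxcl3 in KO (0.0297) from 4 to 24 h, Cxcl13 in WT at 4 h (0.0486) and Pf4 in WT at 24 h (0.0345), and the software's processed signals added Cxcl13 in WT at 4 h (0.0468) and Cxcl3 in KO (0.0306). The mean over all probes ended both calls of Cxcl9 at 1 h. Background correction, scaling and filters turned the sign of no result that had an unadjusted p under 0.05. Among the other 69 results there were 72 sign changes, counted over each result and alternative, in 39 results, none of them called in the result or in the alternative that turned it. Leaving out a 24 h array added calls of Cxcl2 from 1 to 4 h in both genotypes (0.0158 in WT and 0.0227 in KO, whichever array was left out), of Cxcl13 in WT from 4 to 24 h (5.52e-04 without replicate 1) and of Cxcl13 in KO at 4 and 24 h. All 9 genes were well above background on all arrays, and each time point has 2 arrays.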
